A study of Mus musculus with 2 samples.

Results

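The genes described here carry endothelin and adrenomedullin signals and set the tone of vessels: the ligand Edn1 and its receptors Ednrb and Ednra, the processing enzyme Ece1, the nitric oxide synthase Nos3, the angiotensin-converting enzyme Ace, the receptor Calcrl with its partners Ramp2 and Ramp3, and the ligand Adm. The 10 genes were listed by name, and all 10 were among the 15526 genes measured. They were followed across lung cells grouped by lineage markers and, within the endothelial cells, by Car4, Gpihbp1 and Vwf. The cells came from the lungs of p16-FDR mice on the C57BL/6 strain background, aged 20 to 22 months. In these animals an FLP recombinase and a diphtheria toxin receptor, the latter joined to the red fluorescent protein mCherry, report on p16, the cell cycle inhibitor that Cdkn2a encodes. All cells had been sorted as mCherry-positive, so every group below shares the reporter, the age and the gate, and cells without mCherry were not analysed here. The 2 samples were deposited as 1 table of 1344 cells, whose names carry 2 library numbers that match neither sample label. The table was therefore treated as 1 sample, comparisons between cell groups are descriptions without a test, and each library's value is given where it bears on a result.

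Endothelin 1 is a peptide that endothelial cells cut from a longer precursor with the help of endothelin-converting enzyme, Ece1. On smooth muscle it contracts vessels, mainly through the type A receptor Ednra, while the type B receptor Ednrb on endothelial cells takes the peptide up and can release nitric oxide, which relaxes them. Adrenomedullin, the product of Adm, is a dilating peptide whose receptor is Calcrl joined to Ramp2 or Ramp3. In mouse lung, capillaries hold a Car4-rich endothelial cell, the aerocyte, and a general capillary cell marked by Gpihbp1, while Vwf marks larger vessels.

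Library 1 gave 1145 cells with a median of 5631 unique molecular identifiers (UMIs, each standing for 1 captured RNA molecule) and library 2 gave 199 cells with a median of 6716. The total per cell ran from 2517 to 49467 UMIs, and no cell barcode was shared by the libraries. Clustering without the 10 genes gave 12 clusters, named from marker lists where their leading genes allowed it. Endothelial-like cells made up 603 of the 1344 cells in 2 clusters, each detecting a median of 9 or more of 11 endothelial markers. Cluster 1 held 454 cells with Car4 and the other Car4-capillary markers, 322 of them from library 1 and 132 from library 2. Cluster 2 held 149 cells with Vwf and Gpihbp1, 127 from library 1 and 22 from library 2, and 103 of its cells also had a Car4 UMI. The other clusters were interstitial-macrophage-like (103 cells), serous-cavity-macrophage-like (49), alveolar-macrophage-like (20), B-cell-like (82), plasma-cell-like (24) and T-cell-like, in a Trdc-led group of 101 and a Ccl5-led group of 55. Clusters led by Acta2 (92 cells), rich in Dcn but led by the airway gene Scgb1a1 (138) and led by Mmp12 (77) stayed unnamed. Lymphatic, arterial and venous cells were not named separately.

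Levels below are summed UMIs of a gene per 10000 UMIs of the cells, with exact Poisson 95% intervals, and shares are of cells with at least 1 UMI, with exact Clopper-Pearson 95% intervals. Both intervals cover counting error only, not differences between animals. For a count of 0, the limit given is 3 cells of the total, and it bounds cells with a UMI, not cells that express the gene. A gene was called higher or lower where the rates differed at least 2-fold with at least 10 UMIs in the higher group. UMIs were counted at the 3' end and levels are not set against each other between genes.

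**Figure D1:**
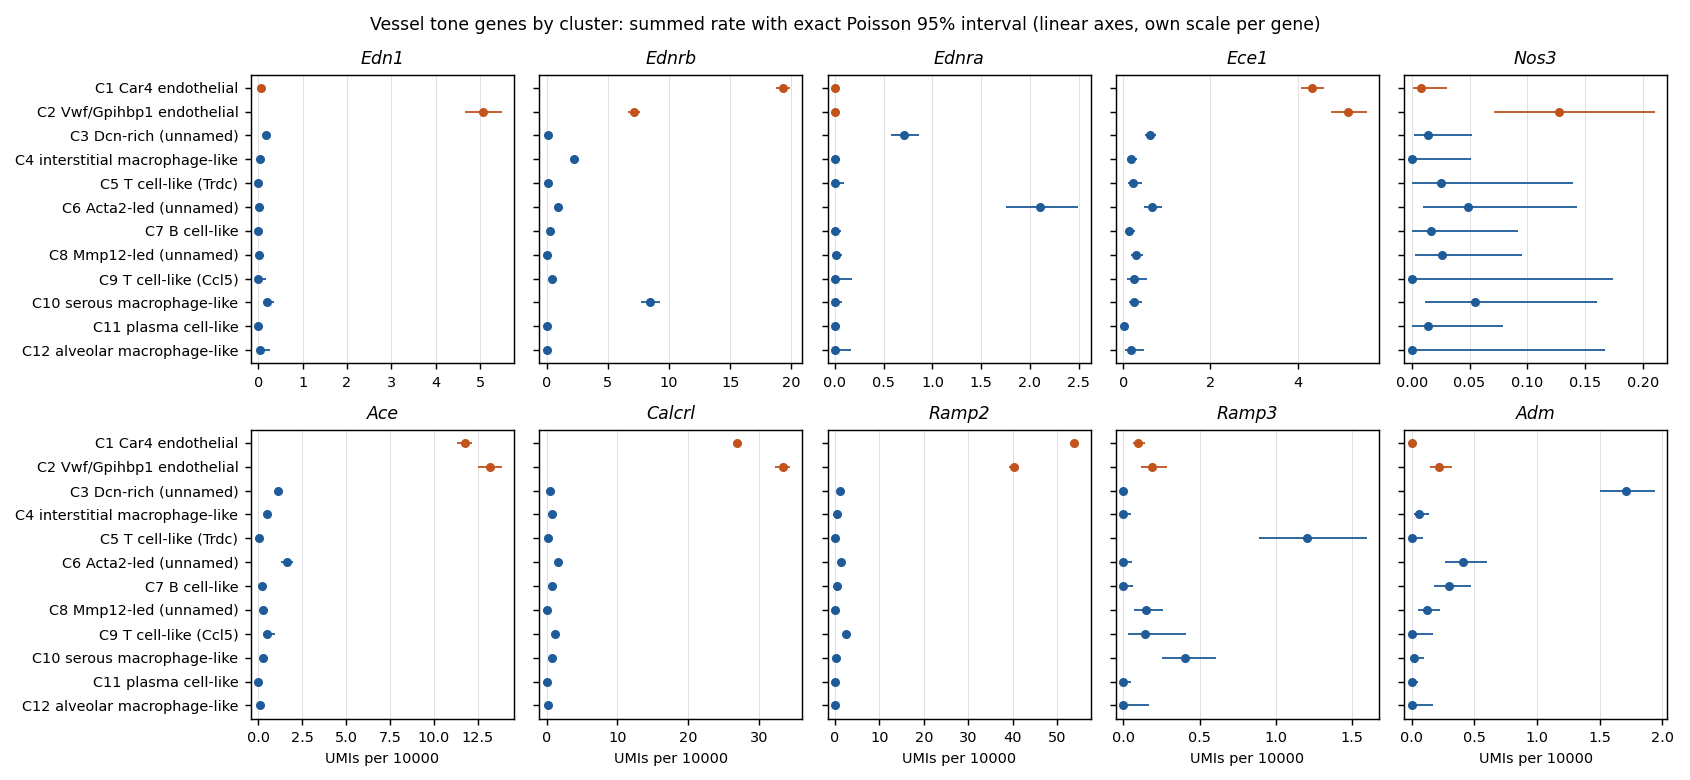
Each panel shows 1 of the 10 genes, with the 12 clusters on the vertical axis and summed UMIs per 10000 on a linear horizontal axis with its own scale. Points are rates over all cells of a cluster, lines are exact Poisson 95% intervals, and the endothelial-like clusters are orange. Ednrb stood at 8.44 in the serous-cavity-macrophage-like cluster, above its 7.13 over all cells of endothelial cluster 2. Ednra and Adm peaked outside the endothelial-like cells.

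Most of the 10 genes were higher in the endothelial-like cells taken as a whole. Against all other cells, 7 of 10 were higher in endothelial-like cells, where 24.8% of all 13389 genes compared were higher, and 2 of 10 were lower, where 26.6% were lower. The median difference over the 10 genes was 3.77 on the log2 scale, beside 0.34 over all genes compared. The 10 genes were chosen with earlier results of these data known, so these counts describe the list and do not test it. Ramp2 had 49.4 UMIs per 10000 in endothelial-like cells and 0.631 in the others, a ratio of 78.3 (70.8 to 86.7). Calcrl had 29.1 and 0.571, a ratio of 50.9 (45.7 to 56.7). Edn1 had 1.72 and 0.0648, a ratio of 26.6 (19.3 to 37.6). The first and second of these form the adrenomedullin receptor, and the third is the endothelin ligand. Ace differed by 21.7 (19.4 to 24.3), Ece1 by 14.1 (12.2 to 16.5) and Ednrb by 13.1 (12.1 to 14.1). Nos3 passed on few molecules, 17 UMIs against 13, with a ratio of 2.27 (1.04 to 5.08). It missed the call in library 2 alone and with a threshold of 3-fold or of 30 UMIs. The genes that were lower were Ednra and Adm. Ramp3 was called neither way, with a ratio of 0.929 (0.632 to 1.35). The Edn1 and Nos3 UMIs of the endothelial-like cells lay mostly in cluster 2, as given below.

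Edn1 and Ednrb, a ligand and its receptor, took opposite sides of the endothelial division. Edn1 (chr13:42301476-42307990, plus strand, GRCm38) had 17 UMIs in 15 of the 454 cells of cluster 1 and 596 UMIs in 103 of the 149 cells of cluster 2. Its rate was 0.0713 (0.0415 to 0.114) in cluster 1 and 5.06 (4.67 to 5.49) in cluster 2, 71.0-fold apart. Ednrb (chr14:103814625-103844402, minus strand) was found in 453 of 454 cells of cluster 1, at 19.3 (18.8 to 19.9). In cluster 2 it was found in 84 of 149 cells, at 7.13 (6.65 to 7.63). The ratio of cluster 1 over cluster 2 was 2.71 (2.52 to 2.92) for Ednrb and 0.0141 (0.00815 to 0.0227) for Edn1. Of the 9 of these genes with enough UMIs, 1 was higher in cluster 1 (Ednrb) and 3 were lower (Edn1, Nos3 and Adm), where 5.31% of the 9873 genes compared were higher and 8.69% lower, 14% in all. The Adm call rested on 1 cell, described with that gene.

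Each library had the same direction for both genes. Edn1 stood at 0.0852 and 5.27 in clusters 1 and 2 of library 1, and at 0.0466 and 4.10 in those of library 2. Ednrb stood at 18.6 and 6.36 in library 1, and at 20.6 and 10.7 in library 2. The library 2 ratio for Ednrb was 1.92 (1.67 to 2.22), just short of 2-fold.

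**Figure D2:**
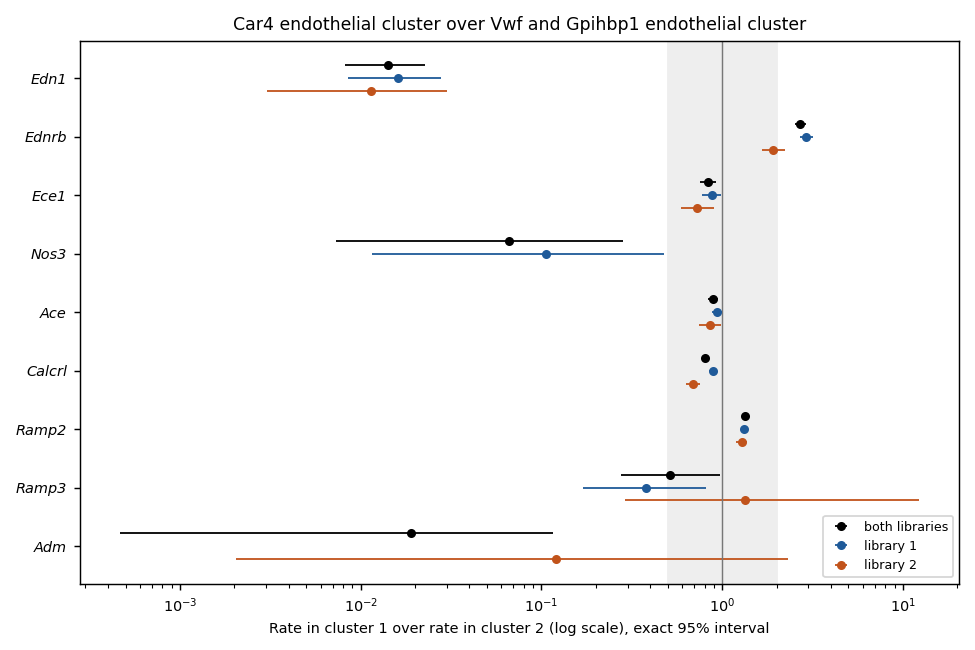
The horizontal axis gives the rate in endothelial cluster 1 divided by that in cluster 2, on a log scale, for 9 of the genes; Ednra had no UMI in either. Black points use both libraries, blue points library 1 and orange points library 2, lines are exact 95% intervals, the grey band spans ratios under 2-fold, and a ratio with a count of 0 in cluster 1 is not drawn. Ednrb lies right of 1 at 2.71 and Edn1 far left at 0.0141, with Ece1, Ace, Calcrl and Ramp2 inside the band.

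The 250 bases before the RefSeq start of 4 genes are shown because these genes split the cells most clearly: Edn1 and Ednrb within the endothelium, Calcrl throughout it and Ednra outside it. The windows, in GRCm38.p6, are chr13:42301226-42301475 (plus strand) for Edn1, chr14:103843702-103843951 (minus) for Ednrb, chr8:77724453-77724702 (minus) for Ednra and chr2:84425267-84425516 (minus) for Calcrl. Each is printed 5′ to 3′, and capitals mark every CACCC or its reverse GGGTG, the core that Krüppel-like factors bind, and every AGGAAG or its reverse CTTCCT, a core of ETS factors.
Edn1: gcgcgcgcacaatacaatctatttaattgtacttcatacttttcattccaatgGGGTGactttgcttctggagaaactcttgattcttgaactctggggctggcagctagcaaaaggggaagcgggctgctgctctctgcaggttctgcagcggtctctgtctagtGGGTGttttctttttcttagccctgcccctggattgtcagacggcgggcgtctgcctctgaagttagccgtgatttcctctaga
Ednrb: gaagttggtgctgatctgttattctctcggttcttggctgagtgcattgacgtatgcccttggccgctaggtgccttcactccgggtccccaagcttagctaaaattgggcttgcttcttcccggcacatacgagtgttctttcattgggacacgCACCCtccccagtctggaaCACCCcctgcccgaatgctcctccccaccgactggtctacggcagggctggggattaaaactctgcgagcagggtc
Ednra: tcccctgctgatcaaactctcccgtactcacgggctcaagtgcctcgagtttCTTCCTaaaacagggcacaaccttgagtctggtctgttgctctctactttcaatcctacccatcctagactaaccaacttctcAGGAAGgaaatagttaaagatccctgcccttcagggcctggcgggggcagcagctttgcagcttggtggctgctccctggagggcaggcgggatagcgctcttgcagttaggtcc
Calcrl: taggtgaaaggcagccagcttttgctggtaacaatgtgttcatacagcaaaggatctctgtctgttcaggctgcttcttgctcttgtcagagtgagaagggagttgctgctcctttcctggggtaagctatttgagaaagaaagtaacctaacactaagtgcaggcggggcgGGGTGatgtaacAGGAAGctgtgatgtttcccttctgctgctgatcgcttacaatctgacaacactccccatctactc
Edn1 and Ednrb each held 2 CACCC cores and no AGGAAG core, Ednra 2 AGGAAG cores and no CACCC core, and Calcrl 1 of each. Over 32851 promoter windows of this length, 52.0% held CACCC and 29.5% held AGGAAG on either strand, so either core is common. Of the 8 genes with a RefSeq window, 6 had a CACCC core and 4 an AGGAAG core in at least 1 window. Ramp2 and Nos3 were not matched. The 8 genes had 12 windows, with more than 1 for Ece1 and Ace, while 52.0% and 29.5% count single windows. The counts by gene are therefore not set against those shares. These matches describe letters only.

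The split between Edn1 and Ednrb was graded. Endothelial-like cells were ordered by the share of Car4 among their Car4, Gpihbp1 and Vwf UMIs, leaving out the 3 cells with none of these. Ednrb stood at 0.433 (0.231 to 0.741) in the 54 cells with a share of 0 to 10%, then at 7.83, 13.3 and 16.6 in the next groups, and at 21.2 (20.5 to 22.0) in the 301 cells with Car4 alone. Edn1 went the other way, from 7.33 (6.40 to 8.37) through 4.88, 2.21 and 0.0774 to 0.0477 (0.0192 to 0.0983). No interval of a group overlapped that of the next for Ednrb, while those of the 2 Car4-richest groups overlapped for Edn1. Median depth did not follow this order: it was 4196.5, 8024, 6293, 6359.5 and 4613 UMIs from the lowest share to the highest. In the same order, library 2 gave 6, 3, 24, 31 and 89 of the 54, 45, 122, 78 and 301 cells. Within both clusters library 2 had the higher Ednrb rate and the lower Edn1 rate. The part of library make-up in this gradient was not tested.

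**Figure D3:**
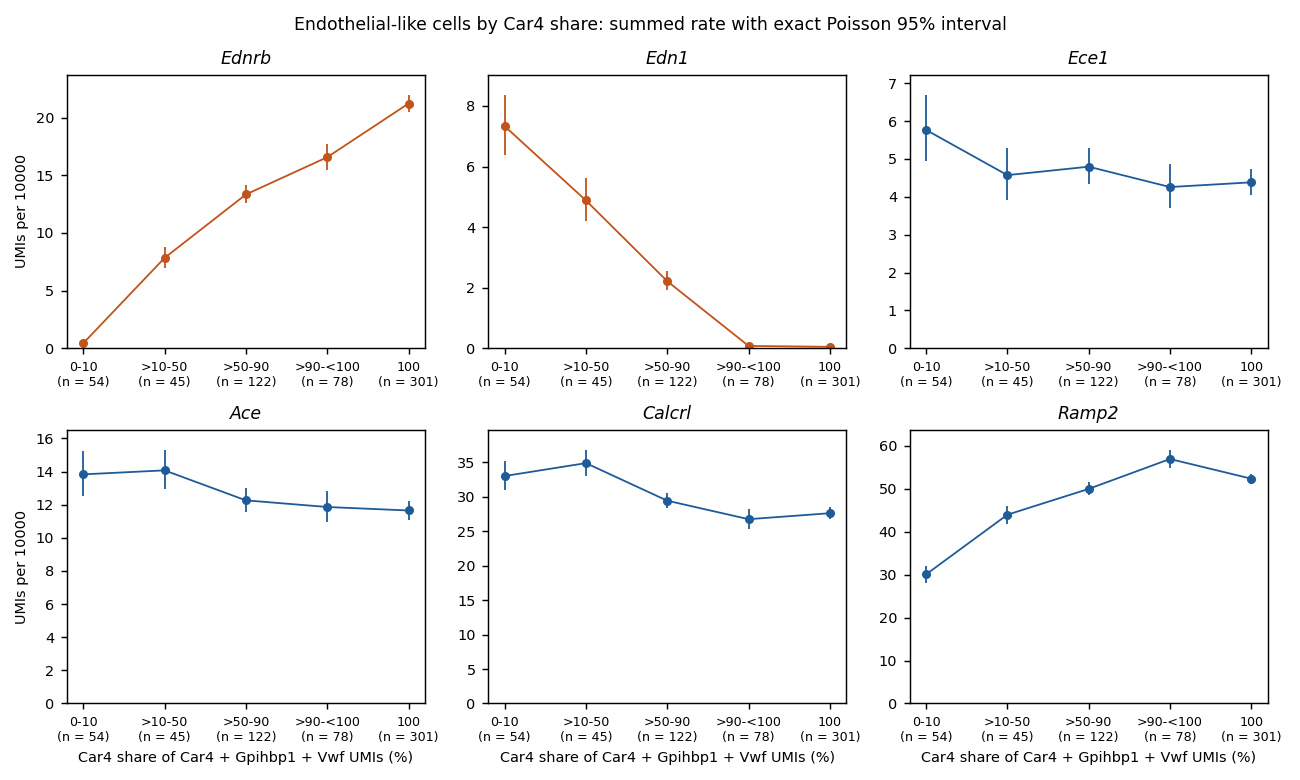
Endothelial-like cells are grouped by Car4 share of their Car4, Gpihbp1 and Vwf UMIs in percent on the horizontal axis, and the vertical axes, all from 0, give UMIs per 10000 for 6 genes. Points are summed rates, bars exact Poisson 95% intervals, and n the cells in each group. Ednrb climbs from 0.433 to 21.2 while Edn1 descends from 7.33 to 0.0477.

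Ordering the same cells by whichever of Car4, Gpihbp1 and Vwf had most UMIs gave a like picture. Edn1 stood at 0.763 in the 508 Car4 cells, 6.18 in the 72 Gpihbp1 cells and 6.93 in the 17 Vwf cells, the last 2 with overlapping intervals. Ednrb stood at 17.8, 4.24 and 2.00. The value in the Vwf cells rested on 19 UMIs in 2 cells, and was 0.962 without the top cell. In library 2, the 7 Gpihbp1 cells and 2 Vwf cells had 0 Ednrb UMIs. Inside cluster 2, the 46 cells without a Car4 UMI had Ednrb at 0.131 and Edn1 at 6.87, while the 103 cells with one had Ednrb at 8.82 and Edn1 at 4.63. Their median depths were 4115 and 8842 UMIs, and the part of depth in this gap was not tested. At a finer clustering, Ednrb was 10.3 (9.59 to 11.05) in 81 cells led by Plvap, Kit, Sema3c and Gpihbp1, and 1.56 (1.20 to 1.99) in 65 cells led by Vwf, Edn1, Ptprb and Gja4.

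Ligand and receptor were found together in a minority of endothelial-like cells. Of the 118 cells with Edn1, 73 also had Ednrb (61.9%, 52.5 to 70.6%), against 464 of the 485 cells without Edn1 (95.7%). With every cell thinned to 2500 UMIs the shares were 46.5% and 92.6%. Within cluster 2 the gap was narrower, with 56.3% of 103 cells with Edn1 and 56.5% of 46 cells without it, or 42.7% and 56.2% after thinning. Edn1 was more often seen beside the Vwf and Gpihbp1 markers: 84 of 118 cells with Edn1 had Vwf, against 47 of 485 without it, and 112 against 180 had Gpihbp1. Cells with Edn1 were deeper, with a median of 6962.5 UMIs against 5116. With every cell thinned to 2500 UMIs the shares were 57.1% and 8.31% for Vwf, and 89.9% and 29.5% for Gpihbp1.

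The 2 converting enzymes were found across the endothelium, at somewhat higher rates in cluster 2. Ece1 (chr4:137862237-137965229, plus strand), which activates endothelin 1, was found in 389 of 454 cells of cluster 1 and 138 of 149 of cluster 2, at 4.33 (4.07 to 4.60) and 5.16 (4.76 to 5.58). Ace (chr11:105967945-105989964, plus strand), which makes angiotensin II and breaks down bradykinin, was found in 443 and 145 cells, at 11.7 (11.3 to 12.2) and 13.2 (12.5 to 13.9). Neither ratio reached 2-fold, and both genes had the same direction in each library. For Ace in library 1 the ratio of cluster 1 over cluster 2 was 0.941 (0.877 to 1.01). Outside the endothelium both were highest in the Acta2-led and Dcn-rich clusters. Ece1 stood there at 0.651 and 0.611, and Ace at 1.61 and 1.10. Cells of these clusters with no UMI of any of the 11 endothelial markers still held Ace at 1.27 (0.952 to 1.66; 69 cells) and 0.858 (0.651 to 1.11; 76 cells).

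Nos3 (chr5:24364810-24384474, plus strand), the endothelial nitric oxide synthase, was barely captured, with 30 UMIs in 28 of the 1344 cells. Cluster 2 held 15 of them in 13 cells, a rate of 0.127 (0.0713 to 0.210), and cluster 1 held 2 in 2 cells, a rate of 0.00839 (0.00102 to 0.0303). The ratio of cluster 1 over cluster 2 was 0.0658 (0.00731 to 0.283). Library 1 had 2 and 12 UMIs in clusters 1 and 2, and library 2 had 0 and 3. Nos3 overlaps Atg9b on the opposite strand, and Edn1, Ednra, Ece1, Ace, Ramp3 and Adm also have an overlapping gene there; whether counting used strand is not stated in the labels. At this depth the rates in the other clusters could not be told apart.

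The adrenomedullin receptor pair was present in nearly every endothelial-like cell. Calcrl (chr2:84330626-84425411, minus strand), the receptor itself, was found in 602 of 603 cells and Ramp2 (chr11:101246028-101259546, plus strand), the partner that tunes it to adrenomedullin, in 601, with both in 600. Calcrl stood at 27.0 (26.3 to 27.6) in cluster 1 and 33.3 (32.3 to 34.4) in cluster 2. Ramp2 leaned the other way, at 53.9 (53.0 to 54.8) and 40.3 (39.2 to 41.5). Both differences were under 2-fold and had the same direction in each library. Along the Car4 share Ramp2 went from 30.1 in the lowest group to 57.0 in the fourth and 52.4 in the last. Ramp2 overlaps Vps25 on the same strand, and how reads were shared between them is not given; Vps25 had 21 UMIs in endothelial-like and 25 in other cells.

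In some clusters outside the endothelium, Calcrl and Ramp2 came mostly from single cells. For Calcrl, 1 cell held 52 of 69 UMIs of the Dcn-rich cluster and another 52 of 102 of the Acta2-led cluster, and these detected 11 and 10 of the 11 endothelial markers. A single cell held 49 of the 52 Ramp2 UMIs of the Ccl5-led T-cell-like cluster and detected 8 of the 11 endothelial markers. Another held 24 of 25 Ramp2 UMIs, and all 17 Ednrb UMIs, of the B-cell-like cluster and detected 9 of 11. Without the top cell, Ramp2 went from 2.45 to 0.146 in the Ccl5-led cluster and from 0.414 to 0.0170 in the B-cell-like cluster. The Dcn-rich cluster had Ramp2 in 51 of 138 cells, at 1.22 (1.04 to 1.41), and at 0.864 without its top cell. Its 76 cells with no endothelial marker UMI had Ramp2 in 21, at 0.473.

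Ramp3 (chr11:6658521-6677475, plus strand), the other partner of Calcrl, had its highest level away from Calcrl. In the Trdc-led T-cell-like cluster it was found in 25 of 101 cells, at 1.20 (0.886 to 1.59), or 0.933 without the top cell. Calcrl was found in 9 of those 101 cells. The serous-cavity-macrophage-like cluster followed with 16 of 49 cells, at 0.402 (0.252 to 0.608). Cluster 2 had 0.187 (0.117 to 0.283), the Mmp12-led cluster 0.146, the Ccl5-led T-cell-like cluster 0.141 on 3 UMIs and cluster 1 0.0965, with intervals that overlapped from each to the next. Ramp3 was not detected in 6 clusters, among them 138 Dcn-rich, 103 interstitial-macrophage-like and 92 Acta2-led cells, where the limits on cells with a UMI are 2.17%, 2.91% and 3.26%. Ramp1, the partner that turns Calcrl into a receptor for calcitonin gene-related peptide, was also highest in the Trdc-led cluster, in 64 of 101 cells at 4.78 (4.13 to 5.51).

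Adm (chr7:110627661-110629820, plus strand), the ligand, was almost missing from the cells that held its receptor. Endothelial-like cells had 27 Adm UMIs, 22 of them in a single cell with 1 endothelial marker UMI and none of Car4, Gpihbp1 or Vwf. Without it the rate was 0.0141 over 602 cells. That cell also carried the Adm difference between clusters 1 and 2, with 1 UMI in cluster 1 and 26 in cluster 2 (ratio 0.0190, 0.000463 to 0.116), and this difference turned to the other direction in 3 other clusterings. The Dcn-rich cluster was highest, with Adm in 58 of 138 cells at 1.71 (1.5 to 1.94), or 1.34 without the cell that held 54 of its 238 UMIs. Leaving out the cells with over 1% Scgb1a1 or an Epcam UMI gave 2.58 (2.26 to 2.94) over 120 cells. The Acta2-led cluster had 0.407 (0.263 to 0.601), or 0.265 without its top cell, and the B-cell-like cluster 0.298 (0.176 to 0.471), with overlapping intervals.

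Ednrb was also strong outside the endothelium, in macrophages. All 49 serous-cavity-macrophage-like cells had Ednrb, at 8.44 (7.69 to 9.24), and thinning to 2500 UMIs left it in 85.5%. That rate was above the 7.13 of endothelial cluster 2 as a whole. The 103 cluster 2 cells with a Car4 UMI stood at 8.82 (8.23 to 9.43), an overlapping interval. The serous-cavity-macrophage-like rate was 55.2% (50.1 to 60.7%) of the rate over all endothelial-like cells. The 11 endothelial markers stood at a median of 1.15% of their endothelial rate in these cells and at most at 8.82%, for Tek, and none of the 11 was at 0. Summed, they made 2.48 UMIs per 10000 there and 212.8 in endothelial-like cells. The 35 cells without a UMI of any of the 11 had Ednrb at 8.95 (8.03 to 9.94). A finer clustering split this cluster into 28 cells led by Serpinb2 and 21 led by Alox15, with Ednrb in every cell of both, at 7.64 (6.67 to 8.71) and 9.34 (8.20 to 10.6). Of the 49 cells, 48 came from library 1.

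Interstitial-macrophage-like cells were divided. Ednrb was found in 38 of 103 cells, at 2.26 (1.93 to 2.64), and the 82 cells with no endothelial marker UMI gave the same rate, 2.26 (1.88 to 2.69). The 38 cells with Ednrb together carried the 11 markers at 10.7 per 10000, against 0.330 in the other 65 although 31 of the 38 had none of them. Median depths were 7249 UMIs with Ednrb and 6548 without it. Library 1 stood at 2.54 and library 2, with 15 cells, at 1.01. Ednrb was found in 0 of 20 alveolar-macrophage-like cells, where the limit on cells with a UMI is 15%, and in 1 of 77 cells of the unnamed Mmp12-led cluster. Values of the lymphoid clusters are given beside these, and whether they form a background was not tested. Ednrb was found in 2 of 101 Trdc-led T-cell-like cells (median depth 3606), in 2 of 55 Ccl5-led T-cell-like cells (median depth 3686) at 0.424 (0.194 to 0.805) with 7 of 9 UMIs in 1 cell, in 1 of 82 B-cell-like cells (median depth 6553), the cell with 9 endothelial markers named above, and in 0 of 24 plasma-cell-like cells (median depth 30153.5), against a median depth of 10595 in the serous-cavity-macrophage-like and 6816 in the interstitial-macrophage-like cells. The Acta2-led cluster had Ednrb in 9 of 92 cells at 0.928, but these 9 cells carried the endothelial markers at 51.9 per 10000, against 0.701 in the other 83. Its 69 cells without such a marker had 0.168 (0.0675 to 0.346).

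**Figure D4:**
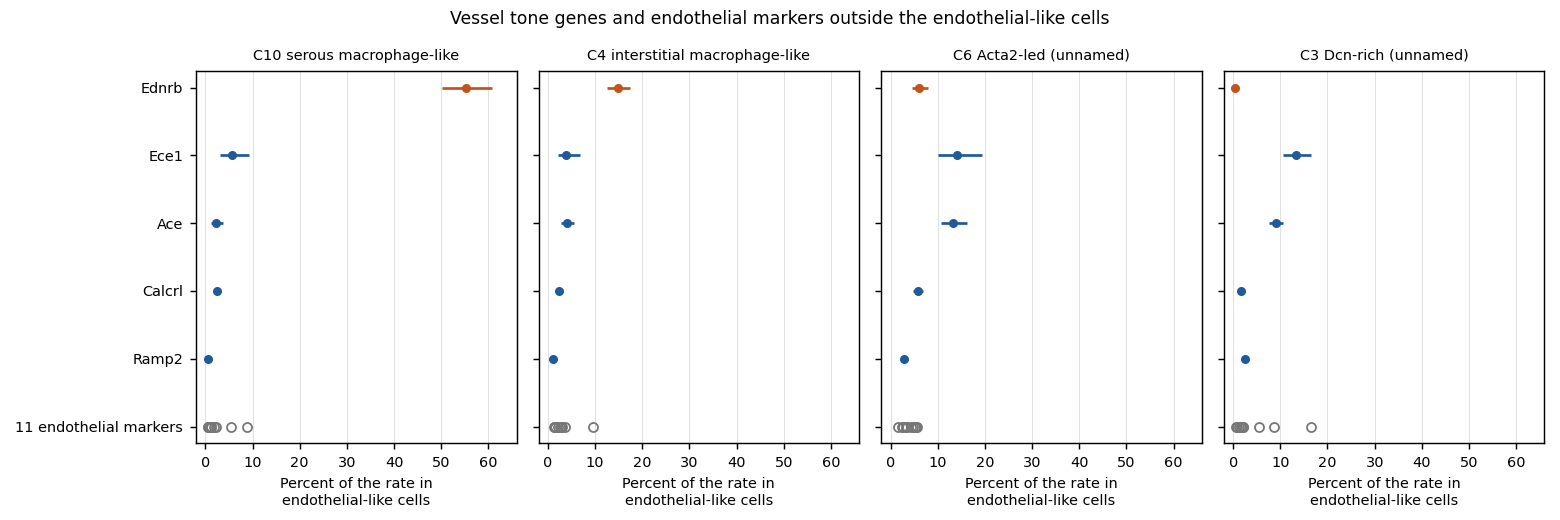
The 4 panels are clusters outside the endothelium, and the horizontal axis gives a gene's rate as a percent of its rate in all endothelial-like cells. Filled points are 5 of the genes with exact 95% intervals, and open circles are the 11 endothelial markers. Ednrb lies at 55.2% in the serous-cavity-macrophage-like cluster, far right of every marker there, of which the highest was 8.82%.

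Ednra (chr8:77663031-77724464, minus strand), the contracting receptor, was found almost only in the Acta2-led and Dcn-rich clusters. It was not detected in any of 603 endothelial-like cells, so that at most 0.498% of such cells would have a UMI, and was at least 43.8-fold lower there than in the other cells, against a floor of 3 UMIs over the group, with an exact 95% upper end of 0.0283 for the ratio at the count of 0. The Acta2-led cluster had it in 60 of 92 cells, at 2.10 (1.75 to 2.50), and the Dcn-rich cluster in 48 of 138, at 0.705 (0.572 to 0.859). These clusters held 227 of the 228 Ednra UMIs in the table. Without the airway-marked cells the Dcn-rich rate was 1.04 (0.842 to 1.28). The finer clustering placed the highest level not in the 28 cells led by Acta2, Tagln, Myoc and Myl9, at 1.25 (0.815 to 1.83), but in 62 cells led by Smoc2, Lrat, Cyp2e1 and Col23a1, at 2.58 (2.10 to 3.13). The 92 cells led by Apod, Mmp3, Inmt and Limch1 had 1.39 (1.12 to 1.69), which overlapped the Acta2 group. The Acta2-led and Dcn-rich clusters had 91 and 133 of their cells from library 1.

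Between the libraries, 2 of 9 of the genes were at least 2-fold higher in endothelial-like cells of library 1 and none were lower, where 6.41% of the 9952 genes compared were higher and 2.34% lower, 8.75% in all. Edn1 stood at 2.10 in library 1 and 0.836 in library 2, a ratio of 2.51 (2.00 to 3.18). Within cluster 2 it stood at 5.27 and 4.10, and within cluster 1 at 0.0852 and 0.0466, on 13 and 4 UMIs. The libraries differed in make-up, with cluster 2 giving 127 of 449 endothelial-like cells in library 1 and 22 of 154 in library 2. The other gene, Adm, rested on the single cell described above. Calcrl in cluster 1 was 29.97 in library 1 and 21.6 in library 2, a ratio of 1.39 (1.32 to 1.47), and Ednrb in cluster 2 was 6.36 and 10.7.

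Cdkn2a, the gene behind the reporter, was detected in 327 of the 603 endothelial-like cells. With rates weighted alike over clusters 1 and 2 and a threshold of 1.5-fold, none of 9 of the genes was higher in cells with a Cdkn2a UMI and 2 were lower, where 6.68% of 9743 genes were higher and 7.32% lower. These were Ramp3, at 0.617 times the rate on 20 and 25 UMIs, and Adm, which rested on the same single cell. Unweighted, the Ramp3 ratio was 0.563 (0.297 to 1.06), with 0.877 (0.353 to 2.30) in cluster 1 and 0.406 (0.130 to 1.09) in cluster 2. Each of these intervals spanned 1. Median depths of endothelial-like cells were 5723 UMIs with and 4627.5 without a Cdkn2a UMI. Within cluster 1 the level of Ednrb was 19.2 with and 19.6 without a Cdkn2a UMI, a ratio of 0.982 (0.924 to 1.04). Within cluster 2 it was 10.5 with and 4.02 without, a ratio of 2.61 (2.25 to 3.04). Car4 moved with it, at 19.8 and 7.32 on the same sides. A Car4 UMI was present in 52 of 53 cluster 2 cells with Cdkn2a and in 51 of 96 without. Depth moved with it as well, with medians of 9343 and 5046 UMIs. By library, Ednrb in cluster 2 stood at 9.20 with and 4.34 without Cdkn2a in library 1, and at 222 UMIs in 12 cells and 0 in 10 cells in library 2, where the median depths were 13147.5 and 3770.5. Among the cluster 2 cells with a Car4 UMI the Ednrb ratio was 1.69 (1.45 to 1.97) and the Car4 ratio 1.73 (1.55 to 1.93). The part of Car4 and of depth in the Ednrb difference was not tested further. Edn1 over all of cluster 2 stood at 4.53 with and 5.56 without Cdkn2a, a ratio of 0.815 (0.691 to 0.962). Cells of library 1 alone gave a ratio of 0.972 (0.811 to 1.16). Library 2, with 12 and 10 cells, had levels of 2.91 and 8.32, a ratio of 0.349 (0.223 to 0.550). In the Car4-positive cells of cluster 2 it was 0.968 (0.798 to 1.18), from 4.57 and 4.72.

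Other genes of these pathways gave 11 higher and 16 lower in endothelial-like cells among 35 compared, out of 37 in the table and 52 listed, where 24.8% of all genes compared were higher and 26.6% lower. These lists too were chosen with earlier results of these data known. The nitric oxide list had 5 higher and 1 lower of 10, with a median log2 of 1.64, beside 0.34 over all genes compared. Cav1, the caveolar protein that binds endothelial nitric oxide synthase, stood at 14.7 in cluster 2 and 10.1 in cluster 1. Nostrin, which traffics the synthase, stood at 4.51 and 6.18, and Ddah1, which breaks down an inhibitor of it, at 1.33 and 1.86. The others were Ddah2, with 2.73 in endothelial-like and 0.541 in other cells, and Nos2, the inducible synthase, with 18 UMIs against 0, at least 10.4-fold higher against a floor of 3 UMIs, with an exact 95% lower end of 7.63. The one that was lower was Gucy1a1, a subunit of the nitric oxide receptor, highest in the Acta2-led cluster at 2.28 in 13 of 92 cells, with the partner subunit Gucy1b1 at 1.27.

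The prostanoid list ran the other way, with 7 lower and 2 higher of 9. Among all genes compared, 26.6% were lower and 24.8% higher. The list median was -4.17 on the log2 scale, beside 0.34 over all genes compared. Ptgis, the prostacyclin synthase, stood at 0.132 in endothelial-like cells, 4.75 (4.19 to 5.36) in serous-cavity-macrophage-like cells and 3.42 in the Acta2-led cluster. Ptgs1, a cyclooxygenase, stood at 0.244 in endothelial-like cells and at 2.98 (2.54 to 3.47) in the serous-cavity-macrophage-like cells, in 44 of 49. Tbxa2r, the thromboxane receptor, was higher in endothelial-like cells, with a ratio of 10.1 (7.68 to 13.4), as was Ptges, with 2.08 (1.60 to 2.69).

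The remaining lists hold few genes, and their counts stand beside 24.8% higher and 26.6% lower among all genes compared. Of 5 angiotensin and kinin genes compared, 4 were lower (Agtr1a, Bdkrb1, Anpep and Enpep). Bdkrb2, the bradykinin receptor, was higher, with 122 UMIs against 8. Of 3 natriuretic peptide genes 1 was higher, the receptor Npr1, with a ratio of 8.80 (6.79 to 11.5). The remaining endothelin genes were both lower. Mme, the peptidase neprilysin that breaks down endothelins, had no UMI in endothelial-like cells and stood at 1.48 in the Acta2-led cluster. Edn3, another endothelin, had 22 UMIs, all in the Dcn-rich cluster. In the adrenomedullin and calcitonin gene-related peptide list 2 of 4 were lower, Ramp1 and Calca. Klf2 and Klf4, factors that respond to blood flow, were both higher, with ratios of 2.08 (1.99 to 2.18) and 2.85 (2.67 to 3.05).

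Between the endothelial clusters, 2 of 22 pathway genes were higher in cluster 1 (Ptges, and Npr2 on 17 UMIs against 3, ratio 2.80, 0.809 to 14.9) and 4 were lower, where 5.31% and 8.69% of all genes compared were. The 4 were Nos2, Ptgs1, the natriuretic clearance receptor Npr3, at 0.0420 and 0.765, and Ackr3, a scavenging receptor that binds adrenomedullin, at 0.0168 and 0.552. By Cdkn2a, with rates weighted over the clusters, 6 of 21 were higher in cells with it (Gucy1a1, Gucy1b1, Prkg1, Bdkrb2, Tbxa2r and Npr2) and 1 was lower (Ptgis), where 6.68% and 7.32% of all genes compared were. Gucy1b1 had 39 UMIs against 8, a weighted ratio of 3.25, and Tbxa2r 259 against 106, a weighted ratio of 1.59. Tbxa2r and Gucy1b1 were also lower in library 1 than in library 2, at 0.444 and 0.445 times the rate. In library 2, 118 of the 154 endothelial-like cells had Cdkn2a, against 209 of 449 in library 1. Npr2 rested on the few UMIs given above. Cells with Cdkn2a were deeper, with medians of 5723 and 4627.5 UMIs, and the part of depth and library in these counts was not tested.

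Over the 12 clusters, the gene whose log level followed Edn1 most closely among 9365 genes was Cadps2 (Pearson r 0.989), and for Ednrb it was Fam212a (0.943). Calcrl ran with Cldn5 (0.984), a tight junction protein, and Cdh5 (0.980), the endothelial cadherin. Ramp2 ran with Ly6c1 (0.991), Ace with Eng (0.982), Ece1 with Rtl8b (0.967), Ednra with Pamr1 and then Mme (0.999), Ramp3 with Coq10a (0.959) and Adm with Tpst1 (0.883). Each partner was picked as closest among the 9365 genes. Ednra and Ramp3 had no UMI in many of the clusters, so their values rest on few clusters. The same holds for Edn1, at 5.06 in cluster 2 and at most 0.201 in any other cluster. Adm likewise stood at 1.71 in the Dcn-rich cluster and at most 0.407 in any other. The clusters share libraries and cells, and these values are descriptions.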

How the data were processed

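The 10x Genomics Chromium 3' kit, version 3, gave the libraries per the labels' protocols, and Cell Ranger 3.0.2 and mm10 stand in the submitters' processing notes; annotation, cell filters and strand use are not stated in the labels. Each deposited value was the natural log of 1 plus a gene's UMIs per 10000 UMIs of its cell, as back-transformed sums per cell show, and whole UMIs were recovered with a largest deviation of 1.78e-10. Columns of cells not used numbered 0. The 10 genes, the pathway lists and the marker lists were chosen with earlier results of these data known. Clusters came from scanpy 1.11.5 run on 2000 highly variable genes with the 10 genes, the 7 pathway lists and Cdkn2a left out, 20 principal components, 15 neighbours and Leiden (igraph 0.11.9) at a resolution of 0.5. No doublets were removed; 25 cells had at least 3 markers of several lineages and were left out in an alternative. Thinned shares are expected shares after drawing 2500 UMIs from each cell. For ratios a count of 0 was set to 3 UMIs. Named genes were the 10 genes, the grouping genes, pathway genes detected in at least 5% of the cells of a class, leading genes of clusters, and the genes most like each with at least 100 UMIs, by Pearson correlation of the natural log of the rate plus 0.1. Tek and Calca were named after their values were seen. The fold rule and thinning were tested on simulated data. Positions are from the GENCODE mouse annotation, release 21 of its M series, and upstream sequences from RefSeq (GRCm38.p6).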

Additional observations from a re-analysis of the deposited data

How the results depend on the processing

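No paired analysis was possible because the table is 1 sample and the cell names match neither sample label. The count of genes higher in endothelial-like cells was 6 or 7 under all 14 alternatives, with Nos3 the gene that was lost. The count differing between the endothelial clusters ranged from 1 to 5 with 1 library left out: library 2 alone kept only Edn1. For Adm the log2 ratio of cluster 1 over cluster 2 was -5.72, and it turned to 1.47 at resolutions of 0.3 and 1 and to 1.47 with 30 components, and at a resolution of 1 the cell with 22 Adm UMIs lay in the other group; for the other settings the cause was not tested. For Ramp3 it was -0.95, and ranged from -1.39 to 0.41 with 1 library left out, the latter in library 2 on 13 UMIs. Within cluster 1, 0 genes differed between libraries against 2 over both clusters. Without the cell with most Adm UMIs the count was 1 between libraries and 1 by Cdkn2a. The Cdkn2a count was 4 without weighting over clusters (Edn1, Nos3, Ramp3 and Adm) and 1 at 2-fold. The gap in Ednrb between cells without and with Edn1 was 46.1 percentage points thinned, 33.8 unthinned, and 45.8 and 44.4 in library 1 and library 2 alone. Of 213 values of 23 rates under the alternatives, 10 moved by over 1.5 times. Besides those given with the results, these were Ednrb in the interstitial-macrophage-like cluster, at 1.12 and 1.20 at a resolution of 0.3 and with 30 components, Ednra in the Dcn-rich cluster, at 1.13 and 1.39 at resolutions of 0.3 and 1, and Ednrb in the Acta2-led cluster, at 0.127 without cells of several lineages. Some alternatives were added after seeing the data. They removed a cluster's cell with most UMIs of a gene, the top Adm cell, the airway-marked cells or the cluster 2 cells with Car4. With 1 pooled sample and fewer than 200 cells in library 2, differences between animals cannot be estimated, and Nos3, Ramp3 and Adm rest on few molecules.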
